A study of Mus musculus with 6 samples.

Results

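The S100 proteins are small calcium-binding proteins of the EF-hand type, and most of their genes lie side by side on mouse chromosome 3, some megabases before *Anp32e*. The genes described are the 10 *S100a* genes *S100a1*, *S100a3*, *S100a4*, *S100a6*, *S100a8*, *S100a9*, *S100a10*, *S100a11*, *S100a13* and *S100a16*, a named set from this cluster that leaves out its other S100 genes, such as *S100a2* and *S100a7a*. They are 10 of the 25043 genes to which the rows of the deposited table could be matched. RNA-Seq was made from 6 cultures of primary mouse embryonic fibroblasts (MEFs), 3 WT and 3 Anp32e null, all at a passage below 8 and with no other treatment named. The null cells carry the *Anp32e* deletion from the embryo onwards in every cell, and the number of embryos or lines behind the 3 cultures of each genotype is not given in the sources used here. Libraries were made from total RNA with a stranded kit.

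An S100 protein usually works as a dimer that opens on binding calcium and then grips a partner protein, such as an annexin, a myosin or a membrane receptor. S100A10 is the exception that no longer binds calcium and sits locked to annexin A2 at the plasma membrane. In fibroblasts S100A4 and S100A6 are known as cytoskeleton and motility proteins, whereas S100A8 and S100A9 form calprotectin, the complex that fills neutrophils.

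Only 1 value per transcript could be used, the authors' mean of normalized counts over all 6 libraries, both genotypes together. The other columns hold the authors' own comparison of the 2 genotypes and were not used, so no difference between Anp32e null and WT is given for any gene, no test was run, and a mean has no SD. For the same reason the label of a library could not be checked against its *Anp32e* level, whose mean over both genotypes was 2189.9 normalized counts. Normalized counts are reads divided by a size factor for each library, and the 6 factors recovered from the lowest means lay between 0.9089 and 1.131. To set genes of different length side by side, the mean was divided by transcript length and is then a level per kilobase (per kb). Places among genes refer to the 13769 autosomal genes whose mean reached 10 normalized counts, 13508 of which had a known length.

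The 10 genes spread over the whole range of expression in these cells. *S100a4* and *S100a6* stood among the 20 highest genes per kb, and *S100a10* and *S100a11* were also within the top 10%. *S100a13* and *S100a1* lay at the 89.35th and 78.16th percentile per kb. *S100a16* and *S100a3* were nearer the middle, at the 59.53rd and 47.26th. *S100a8* was low, and *S100a9* was listed at 0. By the deposited mean, 9 of the 10 genes reached the minimum of 10 normalized counts and 4 were among the top 10% of genes. Of all 25043 genes, 13769 were autosomal and reached this minimum. The 10 genes were chosen with earlier results of these data known, so these counts describe the set only.

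**Figure D1:**
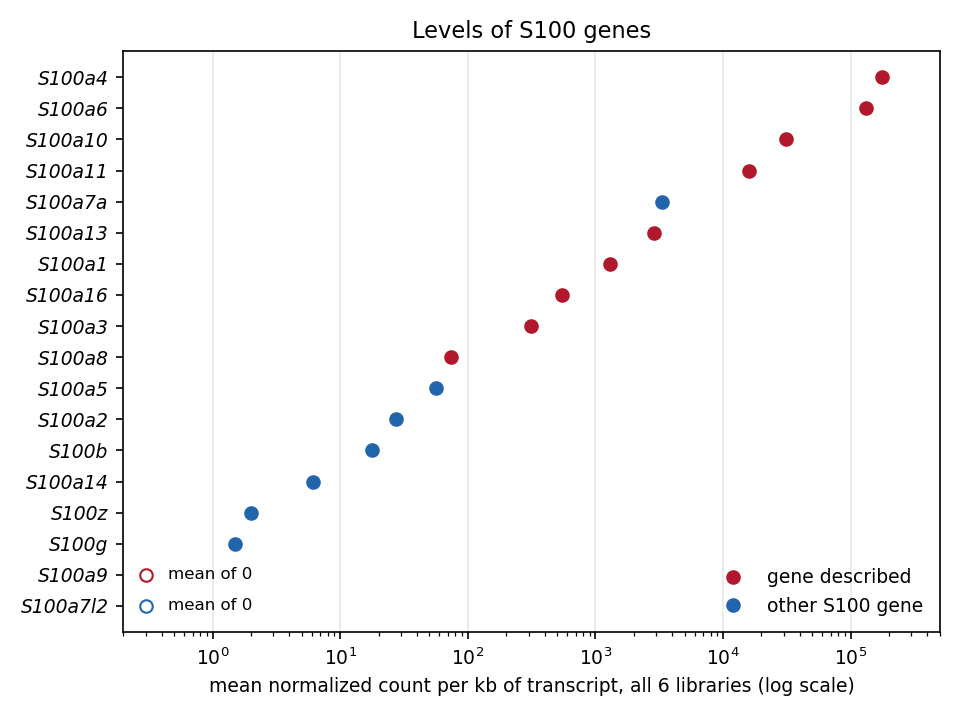
Mean normalized count per kb of transcript over all 6 libraries, on a log scale, for the 10 genes described (red) and the 8 other S100 genes of the table (blue). The highest is *S100a4* at 174859.7 per kb, and *S100a9* and *S100a7l2* (open circles) have a mean of 0.

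*S100a4*, also known as metastasin or fibroblast-specific protein, binds non-muscle myosin. Its mean was 87080.2 normalized counts, which corresponds to at least 474901 reads over the 6 libraries. With a transcript of only 498 nucleotides in 3 exons (GRCm38, chr3:90603771-90606045, plus strand), this gave 174859.7 per kb. *S100a4* was thereby the 12th highest gene per kb in these MEFs, 491.4-fold above the median gene per kb, at 355.9. Per kb it lay between the ribosomal protein gene *Rps12*, at 184515.3, and the ferritin gene *Ftl1*, at 165237.9. By the mean, without regard to length, *S100a4* was the 44th highest. A place per kb rests on the annotated length of 1 transcript for each gene.

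*S100a6*, calcyclin, binds annexins and the calcyclin-binding protein encoded by *Cacybp*. Its mean of 97294.7 normalized counts was the highest of the 10 genes and the 34th highest of all by the mean. Its transcript of 731 nucleotides (chr3:90612882-90614414, plus strand, 3 exons) is longer than that of *S100a4*, and the level per kb was 133098.1, the 19th highest. The order of the leading pair therefore depended on the scale, with *S100a4* 1.314-fold above *S100a6* per kb and 0.895 times *S100a6* by the mean. Both were close to vimentin (*Vim*), the intermediate filament protein of mesenchymal cells, at 150795.7 per kb. *S100a4* stood 1.16-fold above *Vim* per kb, and *S100a6* at 0.8826 times *Vim*. These 2 genes together made up most of the summed level per kb of the 10 genes, 48.55% from *S100a4* and 36.95% from *S100a6*.

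*S100a10* and *S100a11* lie next to each other in the same orientation at the other end of the cluster. *S100a10*, or p11, had a mean of 21240.3 normalized counts and 31007.7 per kb (685 nucleotides, chr3:93555080-93564643, plus strand), the 124th highest level per kb. *S100a11*, calgizzarin, which binds annexin A1, had a mean of 8232.1 normalized counts and 16109.8 per kb (511 nucleotides, chr3:93520488-93526287, plus strand), the 246th highest. *S100a10* was 1.925-fold above *S100a11* per kb. Both levels were in the range of the calmodulin genes, of which *Calm2* had 20575.4 and *Calm3* 19602.6 per kb.

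*S100a13* and *S100a1* are read in opposite directions from starts close together. *S100a13*, which takes part in the release of growth factors and cytokines that lack a signal peptide, had a mean of 2047.1 normalized counts and 2863.1 per kb (715 nucleotides, chr3:90514435-90524581, plus strand, 4 exons). *S100a1*, best known from heart and skeletal muscle where it regulates calcium cycling, had a mean of 889.9 normalized counts and 1314.4 per kb (677 nucleotides, chr3:90511034-90514392, minus strand). The level of *S100a13* was 2.178-fold that of *S100a1* per kb. *S100a1* stood above the 7 muscle markers listed, by the mean and per kb. Of these only *Des* reached 10 normalized counts (59.57), and *Myod1* was listed at 0, whereas *S100a1* was 3.694-fold above the median gene per kb. The RefSeq spans of *S100a1* and *S100a13* overlap at their starts, and whether strand was used in counting is not given in the sources used here, so that reads in the overlap could not be told apart.

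*S100a16* and *S100a3* were measured on several transcripts each. The 7 transcripts of *S100a16*, a broadly expressed member of the family, had means from 613.5 to 616.5 normalized counts, and its level was 549.0 per kb. The 4 transcripts of *S100a3*, a zinc-binding member known from the hair cuticle, had means from 217.5 to 223.9 normalized counts, and its level was 314.5 per kb, near that of the median gene (0.8837 times). The lowest transcript of *S100a3* had 97.15% and that of *S100a16* 99.52% of the mean of the highest. Of the 7473 genes with at least 2 transcripts with reads, 2962 had the same mean on 2 or more transcripts. For both genes the length is that of the 1 transcript that could be matched to the annotation (1123 nucleotides for *S100a16*, 712 for *S100a3*).

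The calprotectin genes were at the bottom. *S100a8* had a mean of 36.18 normalized counts and 74.45 per kb (486 nucleotides), a place at the 23.86th percentile of genes per kb. Both transcripts of *S100a9*, which encodes the partner of S100A8, were listed at 0. A total of 3 reads over the 6 libraries would have given a mean of 0.5501 normalized counts at most, so that any level up to this could not be told from 0 at this depth, for counting error only. Genes that mark neutrophils and other myeloid cells were also near 0. None of the 9 on the list reached 10 normalized counts, their highest was *Ptprc* at 3.088, their summed mean was 11.09, and *Elane* and *Ngp* were listed at 0. Of 6 macrophage markers, 2 reached 10 normalized counts, *Cd68* at 257.2 and *Csf1r* at 40.06, and *C1qb* was listed at 0. Of all 25043 genes, 13769 were autosomal and reached 10. The part of myeloid cells and macrophages in the *S100a8* reads was not tested.

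**Figure D2:**
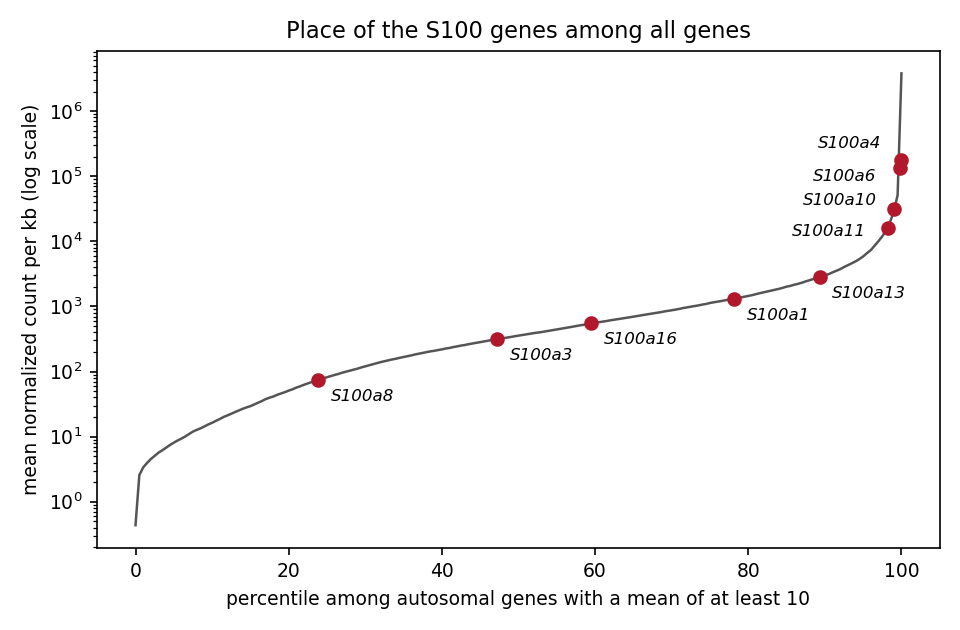
Level per kb (log scale) of autosomal genes whose mean reached 10 normalized counts, drawn as a line from the lowest to the highest percentile, with the 9 S100 genes above 0 marked in red. The points run from *S100a8* at the 23.86th percentile to *S100a4* at the 99.91st, and 4 of them sit on the steep right end of the curve.

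Between neighbours in the order per kb, the steps were unequal. The widest were from *S100a11* to *S100a13* (5.627-fold), from *S100a6* to *S100a10* (4.292-fold) and from *S100a3* to *S100a8* (4.224-fold). The narrowest was that between *S100a4* and *S100a6*. From *S100a4* to *S100a8* the levels per kb spanned 2348.7-fold. Whether neighbours in this order differ beyond the spread of the libraries could not be tested without a value per library.

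Position along the chromosome did not order the levels. The first block of the cluster holds *S100a1*, *S100a13*, *S100a14*, *S100a16*, *S100a3*, *S100a2*, *S100a4*, *S100a5*, *S100a6*, *S100a7a*, *S100a8* and *S100a9* in this order, and *S100a9* at its end lies 5.234 Mb before *Anp32e*. *S100a11* and *S100a10* follow at 2.403 and 2.365 Mb before *Anp32e*. Within the first block, genes close together had very different levels. *S100a4* was 556.0-fold above *S100a3* per kb. *S100a5*, which is known from olfactory neurons and lies between *S100a4* and *S100a6*, had a mean of 24.49 normalized counts, and *S100a4* was 3077.3-fold and *S100a6* 2342.4-fold above it per kb. *S100a2* had a mean of 8.695 and *S100a14* of 6.534 normalized counts. *S100a7a*, a relative of human psoriasin, had a mean of 4234.2 normalized counts and 3308.0 per kb, which was 1.155-fold that of *S100a13* and 44.43-fold that of its neighbour *S100a8*. Before the cluster, *Ilf2*, *Snapin* and *Chtop*, which encode an RNA-binding protein, a vesicle protein and an mRNA export factor, had means of 9232.5, 2237.0 and 4621.5 normalized counts.

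The stretch between *S100a9* and *S100a11* holds the genes of the outer skin barrier, small proline-rich proteins, late cornified envelope proteins and the filaggrin family, the last of which carry an S100 domain fused to long repeats. Of 56 genes there, 31 were listed at 0 and 3 reached 10 normalized counts. The 3 were *Sprr1a* at 305.7, *Crct1* at 11.01 and *Lce1h* at 10.34 normalized counts. Among all 25043 genes, 19275 had a mean above 0, and 13769 were autosomal and reached 10. None of the 6 genes with a fused S100 domain reached 10, the highest being *Tchh* at 0.5004 normalized counts. Beyond *S100a10* the neighbours *Tdpoz2*, *Tdpoz1* and *Tdpoz4* were listed at 0. *S100a10* and *S100a11*, at 21240.3 and 8232.1 normalized counts, were thus flanked on both sides by genes at or near 0.

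**Figure D3:**
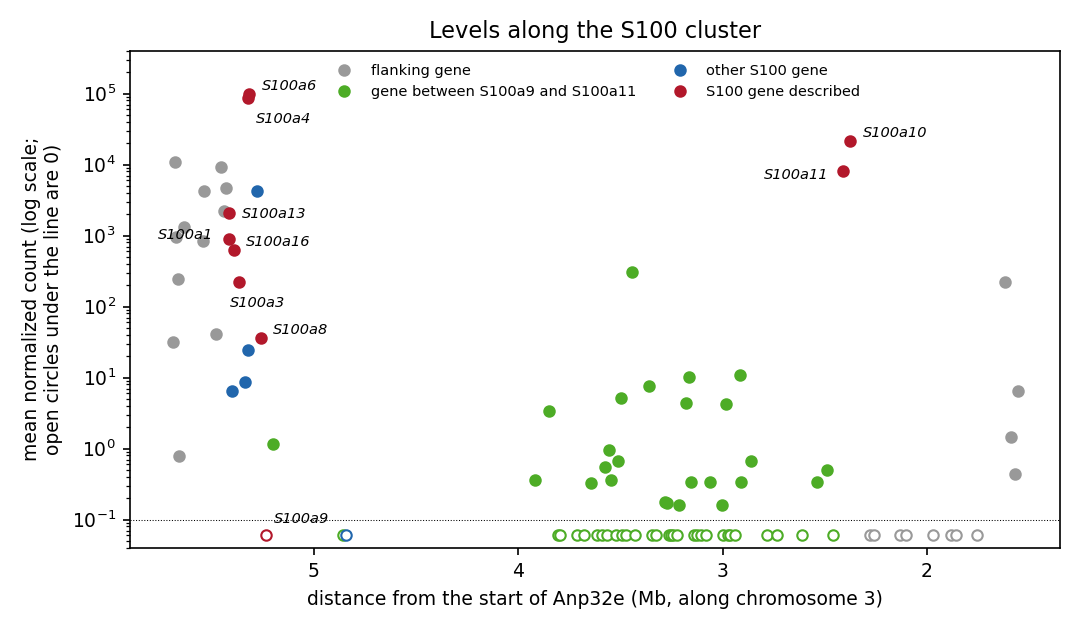
Mean normalized count (log scale, open circles for 0) against the distance in Mb from the first base of a gene to the first base of *Anp32e* along chromosome 3. Genes described are red, other S100 genes blue, *S100a7l2* among them, the other 55 genes between *S100a9* and *S100a11* green and flanking genes grey; *S100a10* and *S100a11* stand alone to the right of a row of genes at or near 0.

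Of the 8 other S100 genes, 3 reached 10 normalized counts. They were *S100a7a*, *S100b* at 26.57, which marks glial cells, and *S100a5*. Of all 25043 genes, 13769 were autosomal and reached 10. *S100g* and *S100z* had means of 0.7189 and 0.8026, and *S100a7l2* was listed at 0. The median of these 8 genes was 7.614 normalized counts. The median of the 10 genes described was 1468.5, and that of autosomal genes that reached 10 was 1042.5. Which S100 genes fall in which set was decided with earlier results in view, so the medians of the 2 sets are not compared.

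At the few S100 genes with low means the reads of each library could be worked out, because every library adds its own fixed amount per read to the mean, from 0.1474 to 0.1834. For each of these genes a single set of 6 whole numbers gave the listed mean. The table does not say which library is which, so the values are ordered from low to high and belong to no genotype. For *S100a8* the libraries held 18, 19, 20, 48, 49 and 58 reads, 212 in all. After scaling, its 6 values were 15.92, 19.02, 19.25, 46.72, 52.38 and 63.81 normalized counts, so every library held *S100a8* reads. For *S100a5* the 6 values ran from 13.31 to 34.07 normalized counts, on 146 reads. For *S100b* they ran from 11 to 41.54, on 163 reads. *S100a2* had 52 reads, with 4.052 to 16.5 normalized counts per library. The epithelial gene *S100a14* had 38 reads, none in 2 of the libraries and 7 to 14 in the other 4. *S100g* had 4 reads in 2 libraries and *S100z* 5 reads in 3.

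**Figure D4:**
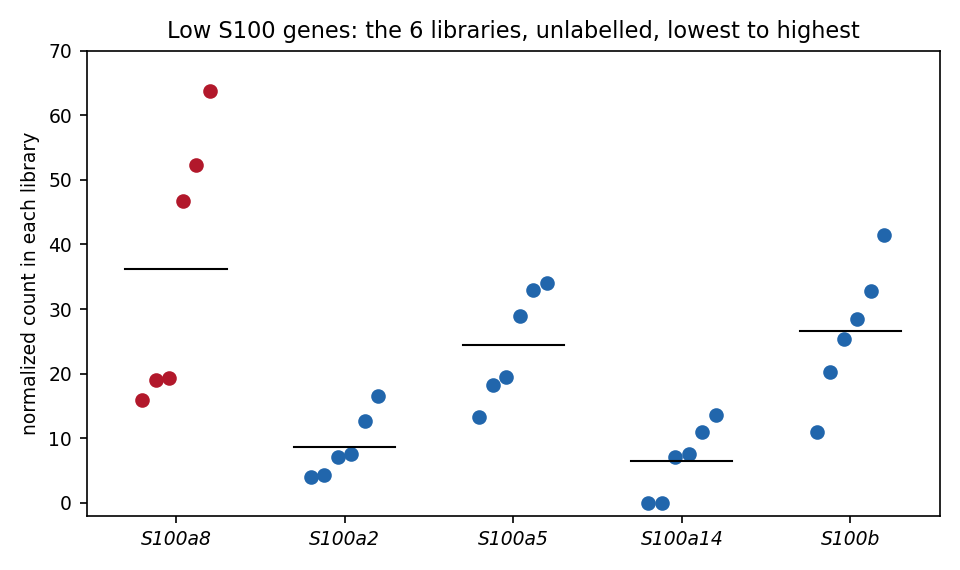
Normalized count in each of the 6 libraries for *S100a8* (red) and 4 other S100 genes with low means (blue), ordered from low to high within each gene. The horizontal line is the mean of the 6, the libraries carry no genotype, and the *S100a8* values run from 15.92 to 63.81.

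Most listed genes for proteins that bind S100 proteins had reads in the same cultures. Of 20 listed partners and receptors, 17 reached 10 normalized counts. Among all 25043 genes, 13769 were autosomal and reached 10. The list was chosen with earlier results known, and whether partners and S100 genes vary together was not tested. The highest per kb was *Anxa2*, the annexin held by S100A10, at 50935.2, which was 1.643-fold the level of *S100a10*. It was followed by *Anxa5* at 30427.6, by *Bsg*, a receptor of S100A8 and S100A9, at 27850.8 and by *Ddb1* at 21226.5 per kb. *Myh9*, the non-muscle myosin heavy chain bound by S100A4, had 21021.0 per kb, *Anxa1*, the partner of S100A11, 11769.5, and *Ahnak*, the scaffold bound by the S100A10 and annexin A2 complex, 6939.6. *Cacybp*, the partner of S100A6, had 3313.6 per kb and *Anxa11*, another, 591.7. Of the receptors for secreted S100 proteins, *Tlr4* had a mean of 466.8 and *Ager*, the receptor for advanced glycation end products, of 18.6 normalized counts. *Fgf1* at 0.483, *Il1a* at 2.301 and *Syt1* at 4.263 normalized counts, which belong to the release pathway that S100A13 serves, were the 3 that did not reach 10, while *S100a13* itself had 2047.1.

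Against other EF-hand proteins, the leading S100 genes were high. Of 14 such genes, 11 reached 10 normalized counts. Of all 25043 genes, 13769 were autosomal and reached 10. This list, too, was chosen with earlier results known. The highest per kb were *Sparc*, a secreted matrix protein, at 26884.1, then *Calm2*, *Calm3* and the calpain subunit *Capns1* at 15107.1. *S100a4*, *S100a6* and *S100a10* lay above all 14. The neuronal calcium buffers *Calb1* and *Calb2* were listed at 0, and *Pvalb* had a mean of 0.6229 normalized counts.

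**Figure D5:**
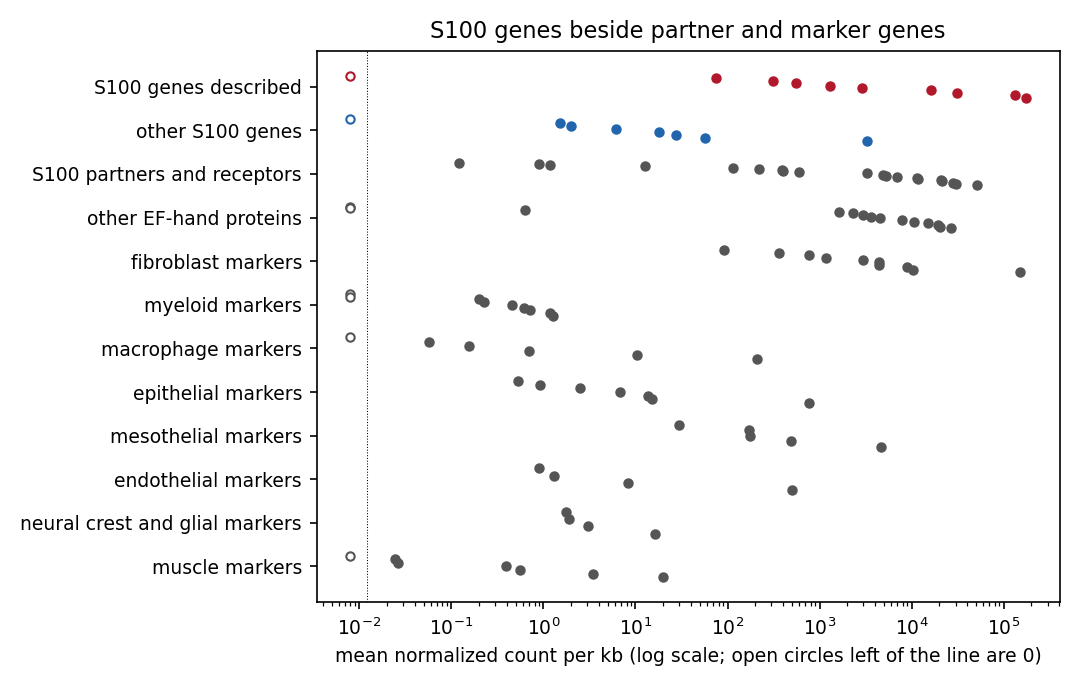
Level per kb (log scale, open circles for 0) of the 10 S100 genes described (red), the 8 other S100 genes (blue), the partner and EF-hand genes and the marker lists (grey), 1 point per gene. *S100a4* and *S100a6* lie beside the highest fibroblast marker, *Vim*, and the 9 markers of neutrophils and other myeloid cells are at 1.277 per kb or lower.

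The markers of the labelled cell type were present. All 10 fibroblast markers reached 10 normalized counts, from *Pdgfra* at 628.3 to *Vim* at 330694.9. Of all 25043 genes, 13769 were autosomal and reached 10. Of the lists for other cells, all 5 mesothelial genes reached 10, from 109.4 to 7400.1 normalized counts for *Krt19*. Of 7 epithelial markers 4 did, led by *Krt18* at 1105.6, whereas *Epcam* had 5.118. Of 4 endothelial markers 2 did, *Kdr* at 2957.5 and *Tek* at 34.44, while *Pecam1* and *Cdh5* had 4.471 and 3.538. Of 4 neural crest and glial markers *Erbb3* alone did, at 97.16. The share of the S100 reads that came from such cells was not tested, and in bulk RNA fewer cells of a type and less RNA per cell cannot be told apart.

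To show what precedes these genes, promoter sequence was taken from RefSeq (GRCm38.p6), which held a window of 250 bases before to 50 bases after the annotated start for 9 of the 10 genes, not for *S100a10*. The lines give the bases just upstream of the transcript at the 2 highest genes and at *S100a11*, 5′ to 3′ on the strand of the gene. Capitals mark a TATA box (TATAAA), a GC box (GGGCGG, the Sp1 motif) or an AP-1 motif (TGANTCA), each GC box and AP-1 motif searched on both strands.
*S100a4*, chr3:90603710-90603769: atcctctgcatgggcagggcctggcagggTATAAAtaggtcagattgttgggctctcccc
*S100a6*, chr3:90612834-90612881: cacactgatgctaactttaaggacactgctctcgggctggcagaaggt
*S100a11*, chr3:93520436-93520487: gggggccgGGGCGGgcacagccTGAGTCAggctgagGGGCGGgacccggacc

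*S100a4* had a TATAAA whose first base lay 31 bases before the RefSeq start, and few CG pairs, 2 in its window. *S100a8*, far lower in level, also had one, 30 bases before its RefSeq start, though the GENCODE transcript starts 93 bases further upstream. A TATAAA between 40 and 20 bases before the start on the strand of the gene was found in 1.91% of all 32851 windows and in these 2 of 9. *S100a6*, at nearly the level of *S100a4*, had none of the 3 motifs in the printed stretch. *S100a11* had 2 GC boxes and an AP-1 motif there, and 15 CG pairs in its window, the most of the 9. *S100a13* with 14 and *S100a1* with 11 followed, against a median of 7 over all windows. The windows of *S100a13* and *S100a1* overlap, so CG pairs in the overlap count for both genes. The GENCODE transcript of *S100a1* starts 62 bases upstream of its RefSeq start. A GC box was found in 4 of the 9 windows and in 35.7% of all, and an AP-1 motif in 2 of the 9 and in 7.81% of all. A match describes letters only and shows no binding.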

How the data were processed

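Total RNA of 3 WT and 3 Anp32e null MEF cultures was sequenced. Per the labels and the methods, the authors aligned reads to mm10 with STAR, counted them with featureCounts of Subread and compared genotypes with DESeq2; whether reads or read pairs were counted, and how reads shared by transcripts were assigned, is not given in the sources used here. The signal analysed is a deposited column in which the authors averaged size-factor-normalized counts across all 6 libraries, for 42361 RefSeq transcripts, 7019 of them at 0. The remaining deposited columns hold the authors' log2 fold change, its standard error, a statistic and its p-values, and were not used. Library totals are unknown.

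RefSeq matched 42203 transcripts to genes and left 158 unmatched. The transcript of highest mean stood for its gene, and lengths came from GENCODE on GRCm38. Reads per library were recovered for S100 genes with means up to 40, as whole numbers matching the mean within 2e-13 normalized counts, and this was tested on simulated data. The genes named were the 10 described, *Anp32e*, neighbours by position, and lists of other S100 genes, partners, EF-hand genes and markers, with every list given by its counts and leading genes, and partners also by role. Genes outside the lists were named by place. Members and lists were chosen with earlier results of these data known. Alternatives changed the transcript, the minimum mean, the sex chromosomes and the length. Python 3.11.15, numpy 2.4.6, pandas 2.3.3 and matplotlib 3.10.9 were used.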

Additional observations from a re-analysis of the deposited data

How the results depend on the processing

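The number of genes among the top 10% was 4 with every gene above 0, with a minimum mean of 50, with X and Y kept and per kb, as in the report. The number that reached the minimum was 9 at a mean of 1 and 8 at a mean of 50. Of the 9 genes above 0, only *S100a3* and *S100a16* had more than 1 transcript, so only their levels could move with the choice of transcript. The mean of *S100a3*, 223.9 normalized counts, became 217.5 with the lowest transcript above 0 and 218.1 with the median over transcripts. That of *S100a16*, 616.5, became 613.5 and 616.0. Places per kb changed for 2 genes under each other length. With merged exons *S100a3* took place 9 and *S100a8* place 8, and with the residues of the protein *S100a6* took place 1 and *S100a4* place 2. The planned edgeR test of counts per library, with replicate number as a block as its alternative, could not be run. Nor could tests with other scaling or without a replicate. No paired analysis was possible because the table holds no values per library with a label. Outside the few low S100 genes whose 6 values were recovered, a mean of 6 libraries hides any spread between them and its error is unknown. Levels per kb depend on the annotated length.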

Other observations

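The 6 unlabelled *S100a8* values were 15.92, 19.02, 19.25, 46.72, 52.38 and 63.81 normalized counts, on 212 reads. Their widest gap, from 19.25 to 46.72, was seen only after sorting, and sorted values always have a widest gap. Which culture gave which value is not known, and nothing was compared. For *S100a5* the values were 13.31, 18.24, 19.45, 28.86, 33.01 and 34.07, and for *S100b* 11, 20.31, 25.31, 28.53, 32.72 and 41.54. For *S100a2* they were 4.052, 4.276, 7.075, 7.608, 12.65 and 16.5. For *S100a14* they were 0.0, 0.0, 7.092, 7.482, 11 and 13.63, where 2 libraries held no read and 4 held 7 or more.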
